A study of Homo sapiens with 6 samples.

Results

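The RGK family is a small branch of Ras-like GTPases named after its founders Rad, Gem and Kir, and in human it is encoded by RRAD, GEM, REM1 and REM2. Members were taken as the rows of the deposited tables that carry these symbols, and 3 of the 4 genes (RRAD, GEM and REM2) had a row among the 17631 genes listed. REM1 was not analysed here. The family was singled out with values of the PDBAG1 comparison already known, so the differences of its members between treatments are given below as descriptions and were not tested.

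MDA-MB-231 is an established line of human breast cancer cells without hormone receptors or amplified HER2, and the labels give it beside a tissue name. It was cultured with vehicle or with 30 µM PDBAG1 for 24 h, and 3 libraries were sequenced from each group. PDBAG1 is a synthetic peptide made of a stretch of the metabolic enzyme GPD1 joined to a cell-penetrating sequence. The methods name distilled water as the solvent of the peptides but do not state what the vehicle contained. No library came from cells given the cell-penetrating sequence alone, so effects of cargo and carrier cannot be told apart. The labels do not say whether the 3 libraries of a group came from separate cultures, so the spread between them may be technical. The comparison asks how the peptide changes the transcriptome of these cells.

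RGK proteins bind guanine nucleotides but lack the lipid anchor of classical Ras proteins. They bind the beta subunits of voltage-gated calcium channels and reduce the current through high-voltage-activated channels. Rad was first found as a transcript raised in skeletal muscle in diabetes, is a target of protein kinase A in the heart, restrains glucose uptake when overexpressed in muscle and fat cells, and can bind the NF-kB subunit RelA. Gem was found as a mitogen-induced gene of lymphocytes.

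RRAD was higher in every PDBAG1-treated library. On the TPM scale, a share of the library's transcripts corrected for gene length, the vehicle libraries 1 to 3 had 10.55, 11.01 and 11.62 TPM and the PDBAG1 libraries 1 to 3 had 42.14, 39.94 and 37.52 TPM. The lowest treated library therefore lay 3.23-fold above the highest vehicle library. The group means were 11.1 ± 0.537 and 39.9 ± 2.31 TPM (SD, n = 3 each), a 3.60-fold ratio. On the log2(TPM + 1) scale, which compresses the fold of weakly expressed genes, the difference was 1.76 with a standard error of 0.07 from the limma fit over all genes. Among the 12582 genes that reached 1 TPM in 3 libraries or more, RRAD ranked 9th by this difference and 20th by the ratio of mean TPM. TPM is measured in bulk, so more cells with RRAD transcripts and more transcripts per cell cannot be told apart.

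RRAD lies on chromosome 16 (66921685 to 66925535, minus strand, GRCh38, GENCODE v44), and its canonical transcript has 5 exons with 1460 bases, of which 924 are coding. No other annotated gene overlaps it. The nearest genes with values on either side were PDP2, which encodes a phosphatase of the pyruvate dehydrogenase complex, and CIAO2B, which encodes an iron-sulphur cluster assembly factor. PDP2 had 10.6 ± 0.172 and 11.6 ± 0.953 TPM (SD, n = 3 each; limma adjusted p = 0.279), and CIAO2B had 166 ± 8.19 and 174 ± 3.98 TPM (SD, n = 3 each; limma adjusted p = 0.286). Neither neighbour passed the threshold of 0.05, although the PDP2 libraries of the groups did not overlap, and their log2 differences were 0.11 and 0.06. CDH16, which lies between PDP2 and RRAD, was not analysed here.

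GEM was the most abundant RGK transcript in both groups. The vehicle libraries 1 to 3 held 42.28, 39.14 and 37.50 TPM, and the PDBAG1 libraries 1 to 3 held 52.54, 55.04 and 58.58 TPM. The groups did not overlap, but the gap was narrower than for RRAD, with the lowest treated library 1.24-fold above the highest vehicle library. The means were 39.6 ± 2.43 and 55.4 ± 3.03 TPM (SD, n = 3 each), a 1.40-fold ratio, and the log2 difference was 0.47 with a standard error of 0.06. It ranked 648th by the log2 difference among the genes tested.

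GEM lies on chromosome 8 (94249253 to 94262350, minus strand, GRCh38, GENCODE v44) and has 5 exons, 2187 transcript bases and 888 coding bases. Its nearest neighbours with values were CDH17, an intestinal cadherin that was at 0.11 TPM or less in every library, and the recombination gene RAD54B. RAD54B had 19.1 ± 1.45 TPM in vehicle libraries and 15.4 ± 1.16 TPM in treated ones (SD, n = 3 per group), and it fell (log2 difference -0.29, limma adjusted p = 0.00830), the direction opposite to that of GEM.

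REM2, which is known mainly from neurons and endocrine cells, was close to the expression limit. The vehicle libraries 1 to 3 had 0.69, 1.05 and 0.67 TPM and the PDBAG1 libraries 1 to 3 had 1.14, 0.70 and 0.95 TPM, so the groups overlapped. Only 2 of the 6 libraries reached 1 TPM, and REM2 did not pass the expression filter. Its means were 0.803 ± 0.214 and 0.930 ± 0.221 TPM (SD, n = 3 each). In a fit without the filter the log2 difference was 0.10 with a standard error of 0.11. REM2 lies on chromosome 14 (22883222 to 22887678, plus strand, GRCh38, GENCODE v44). The receptor gene LRP10, 1509 bases before it and named after its values were seen, rose from 57.1 to 78.4 TPM (log2 difference 0.45, limma adjusted p = 1.12e-05). RBM23, the neighbour 5526 bases after REM2, had 55.1 and 52.2 TPM and did not pass (log2 difference -0.08, limma adjusted p = 0.282).

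**Figure D1:**
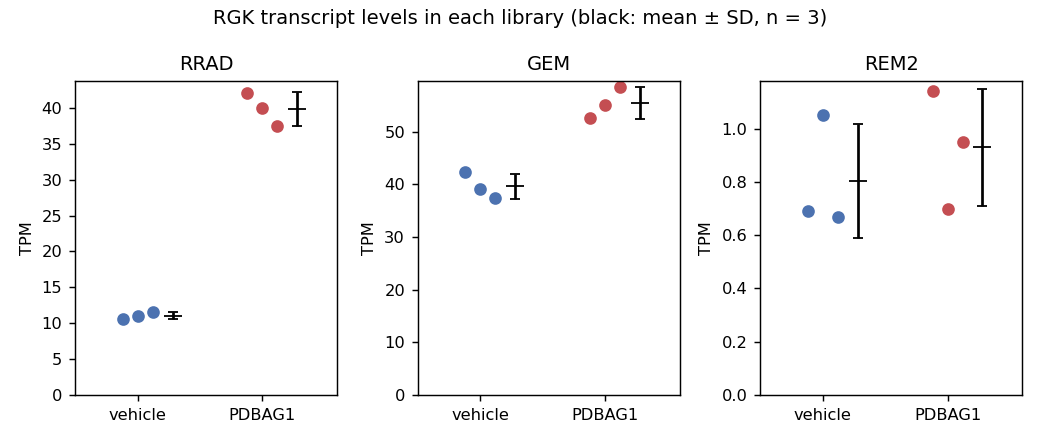
TPM of RRAD, GEM and REM2 (vertical axes, each from 0) in the 3 vehicle and 3 PDBAG1 libraries (points), with the mean ± SD of each group in black (n = 3). The RRAD points with PDBAG1 lie between 37.52 and 42.14 TPM against 10.55 to 11.62 with vehicle, GEM is apart by a smaller gap, and the REM2 groups overlap.

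The groups were apart, with PDBAG1 higher, in 2 of the 3 members with a row. The same was true of 27.2% of all genes tested, with 20.2% apart in the lower direction and 47.4% in either, and since the members were chosen on this comparison nothing is read from the count. Replicates were close for the expressed members. The SD was 4.85% of the mean for RRAD and 6.13% for GEM with vehicle, and 5.80% and 5.48% with PDBAG1. For REM2 it was 26.6% and 23.7%. On the log2 scale the within-group SD was 0.07 for RRAD and 0.08 for GEM, and its median over all genes tested was 0.08.

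The makeup of the RGK transcripts differed between the groups. Because TPM is corrected for length, the levels of the 3 genes can be summed, and the sum was 53.5, 51.2 and 49.8 TPM in the vehicle libraries 1 to 3 and 95.8, 95.7 and 97.1 TPM in the PDBAG1 libraries 1 to 3. RRAD made up 21.5 ± 1.81% of the sum with vehicle and 41.5 ± 2.67% with PDBAG1 (SD over 3 libraries per group). The share of GEM was 76.9 ± 1.89% and 57.6 ± 2.76%. REM2 never exceeded 2.05% in a library. RRAD was at 0.280 ± 0.0302 of the level of GEM with vehicle and at 0.723 ± 0.0808 in treated libraries (SD, n = 3 each), so GEM remained the larger in each library. Of the gain in summed mean TPM, 64.5% was RRAD and 35.2% GEM.

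**Figure D2:**
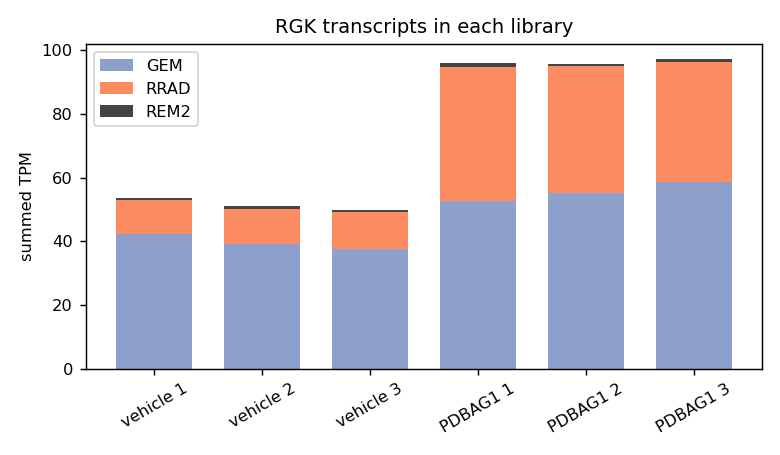
Summed TPM of GEM, RRAD and REM2 (vertical axis, stacked) in each of the 6 libraries. The sum is 49.8 to 53.5 TPM with vehicle and 95.7 to 97.1 TPM with PDBAG1, and the RRAD segment takes a larger share in the treated libraries.

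RRAD and GEM deviated in opposite directions among replicates. In the vehicle group, library 1 had the lowest RRAD and the highest GEM, and library 3 the reverse. In the PDBAG1 group, library 1 had the highest RRAD and the lowest GEM, and library 3 again the reverse. The sum of the 3 genes had a SD of 0.754 TPM over the PDBAG1 libraries, against 2.31 TPM for RRAD and 3.03 TPM for GEM. Over the vehicle libraries it had a SD of 1.88 TPM, against 0.537 TPM for RRAD and 2.43 TPM for GEM.

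The remaining small GTPases of the Ras branch gave a scale for these levels. Together with RRAD, GEM and REM2, 34 genes of this branch had values. With vehicle, GEM ranked 10th by mean TPM and its libraries overlapped those of RAP1A (38.5 ± 0.922 TPM), whereas those of RALA (53.5 ± 2.79 TPM), the next gene above, did not reach down to it. RRAD ranked 19th with vehicle, apart from RAP2B above (13.9 ± 0.243 TPM) and RASD1 below (8.28 ± 0.649 TPM). With PDBAG1, RRAD ranked 11th and overlapped RAP1A (37.1 ± 2.36 TPM), and GEM ranked 9th and overlapped NKIRAS1 (56.4 ± 3.42 TPM; SD, n = 3 for each value). REM2 ranked 24th and 25th, and with vehicle its libraries overlapped those of RASL10A (0.720 ± 0.0608 TPM; SD, n = 3). The RGK genes made up 4.01 ± 0.0733% of the summed TPM of all 34 genes with vehicle and 7.07 ± 0.0612% with PDBAG1 (SD over 3 libraries per group).

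Within their own libraries, the levels of the members can be read as percentiles among the 17631 genes listed. RRAD stood between the 51.0 and 53.5 percentiles with vehicle and between the 74.9 and 77.9 percentiles with PDBAG1. GEM moved from 76.1 to 77.5 up to 81.9 to 83.0, and REM2 lay between 26.1 and 30.1 over all 6 libraries.

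Of the other Ras-branch GTPases, 21 of 32 were tested. At a limma adjusted p under 0.05, 7 rose, 2 fell and 12 did not pass, and over all genes tested 21.7% rose and 15.9% fell by the same rule. The median log2 difference was 0.10 in the list and 0.03 over all genes tested. RASD1, a dexamethasone-induced Ras-like gene, had 7.82, 9.02 and 7.99 TPM in the vehicle libraries and 18.78, 20.68 and 17.68 TPM in the PDBAG1 libraries. It rose by 1.11 on the log2 scale (standard error 0.08, limma adjusted p = 2.50e-07). RASL11A, a Ras-like gene, had 30.47, 29.35 and 25.63 TPM in the vehicle libraries and 14.32, 19.10 and 15.87 TPM in the PDBAG1 libraries, and fell (log2 difference -0.76, limma adjusted p = 3.16e-05). These were the 2 genes of the list past a 1.5-fold change, a limit that 3.34% of all genes tested passed, 2.86% upwards and 0.477% downwards. RRAS2, named after its value was seen, was the other gene that fell (log2 difference -0.16). RHEBL1, a relative of the mTOR activator Rheb, rose by 0.39 and RRAS by 0.30, and RHEBL1 did not pass under quantile normalization (adjusted p = 0.0899). RHEB, the most abundant gene of the list at 295 ± 10.4 and 282 ± 8.05 TPM (SD, n = 3 each), did not pass. Under median-of-ratios scaling 5 rose and 5 fell.

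**Figure D3:**
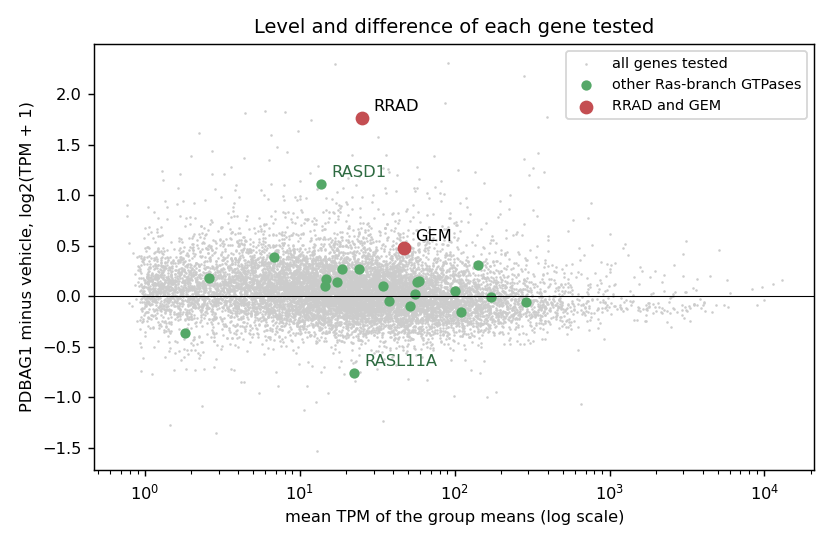
Difference between PDBAG1 and vehicle on the log2(TPM + 1) scale (vertical axis) against the mean TPM of both groups (horizontal axis, log scale) for the 12582 genes tested (grey), other Ras-branch GTPases (green) and RRAD and GEM (red). RRAD lies at 1.76, above RASD1 at 1.11 and GEM at 0.47, and RASL11A lies at -0.76.

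The 4 beta subunits of calcium channels, to which RGK proteins bind, passed the expression filter, and the pore-forming subunits were near 0. CACNB2 was close to the limit of 1 TPM, with group means of 1.13 and 1.15 TPM. Of the 14 subunits of high-voltage-activated channels with a row, 5 were tested, namely the beta subunits CACNB1 to CACNB4 and the auxiliary subunit CACNA2D1. The pore-forming subunits in the tables, CACNA1A, CACNA1B, CACNA1D, CACNA1E, CACNA1F and CACNA1S, all had group means of 0.167 TPM or less, and CACNA1C was not analysed here. The 3 T-type pore subunits, which work without a beta subunit, had group means of 0.0933 TPM or less. CACNB1 was the most abundant at 14.6 ± 1.23 and 16.8 ± 1.04 TPM (SD, n = 3 each; limma adjusted p = 0.0588). CACNB4 was the 1 gene of 5 that passed, against 37.6% of all genes tested. It had 6.47, 5.22 and 6.09 TPM in the vehicle libraries and 7.26, 8.82 and 9.09 TPM in the PDBAG1 libraries (log2 difference 0.44, standard error 0.10, limma adjusted p = 0.00409). The median log2 difference of the 5 genes was 0.20, and without vehicle replicate 1 the count was 2.

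Genes of proteins reported to bind RGK members passed at close to the share of all genes. Of 22 such genes 20 were tested, and 3 rose and 5 fell at a limma adjusted p under 0.05, or 40.0% against 37.6% of all genes tested. The median log2 difference was 0.03 as over all genes, and under median-of-ratios scaling both medians were -0.01. In the reported fit none of the 20 changed 1.5-fold. CALM2, which encodes calmodulin, fell from a mean of 946 ± 11.8 TPM to one of 786 ± 20.4 TPM (SD, n = 3 each, log2 difference -0.27, limma adjusted p = 3.74e-05). NME1, a nucleoside diphosphate kinase, fell by 0.26. GMIP, which encodes a protein that binds Gem, rose by 0.29, and RELA by 0.27, with means of 84.2 and 102 TPM. Without vehicle replicate 3 the count was 5, and GMIP did not pass (adjusted p = 0.0506). YWHAZ, a 14-3-3 protein and the most abundant of the list, had 1331 and 1378 TPM and did not pass. CAMK2A, a calmodulin-dependent kinase below the filter and named after its value was seen, had 0.24, 0.27 and 0.17 TPM with vehicle and 0.90, 0.81 and 1.06 TPM with PDBAG1.

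Of 6 protein kinase A subunits 1 passed, or 16.7% against 37.6% of all genes tested. PRKAR1A, a regulatory subunit, had 175 TPM with vehicle and 196 TPM with PDBAG1 (log2 difference 0.16, limma adjusted p = 0.0274), and did not pass in 5 of 11 alternative settings, where the adjusted p reached 0.129. These included the fits without vehicle replicate 2, vehicle replicate 3 or PDBAG1 replicate 3. The median of the list was 0.04 against 0.03 over all genes, and under quantile normalization these were -0.03 and -0.02.

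Genes of the processes with which Rad has been linked elsewhere were also counted. All gene lists here were chosen with earlier results of these data known, so their counts are given as descriptions. Of 7 genes of glucose entry, its first steps and its restraint, 6 were tested and all 6 rose, against 21.7% of all genes tested. The median log2 difference was 0.52 against 0.03. SLC2A3, a glucose transporter, rose from a mean of 23.3 ± 0.484 TPM to one of 48.4 ± 2.32 TPM (SD, n = 3 each, log2 difference 1.02, limma adjusted p = 1.51e-08). The hexokinases HK2 and HK1 rose by 0.87 and 0.66, HK1 being the most abundant gene of the list in both groups, and SLC2A1, named after its value was seen, by 0.38 on the log2 scale. SLC2A12 rose by 0.38 and did not pass in 7 of 11 alternative settings, where the adjusted p reached 0.168, and 5 of the 6 genes passed under median-of-ratios scaling or quantile normalization. TXNIP, which restrains glucose uptake and was named after its value was seen, also rose (log2 difference 0.34). SLC2A4, the insulin-responsive transporter, was at 0.727 TPM in both groups and was not tested.

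Of 9 NF-kB subunits and feedback inhibitors, 7 rose, 0 fell and 2 did not pass (limma), whereas 21.7% of all genes tested rose and 15.9% fell. The median log2 difference was 0.27 against 0.03 over all genes, and 6 rose under median-of-ratios scaling or quantile normalization. TNFAIP3, an inhibitor of NF-kB signalling, rose by 0.86, the subunits RELB and NFKB2 by 0.76 and 0.64, and the inhibitor NFKBIA, the most abundant of the list, by 0.38. The 2 genes that did not pass were REL and NFKBIB, named after their values were seen.

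GEM was first described among mitogen-induced genes, and of 20 immediate early genes 17 were tested, of which 14 rose and 2 fell. Over all genes tested 21.7% rose and 15.9% fell, and the median log2 difference was 0.62 in the list against 0.03. The largest rises were those of the transcription factors FOS (1.83), NR4A1 (1.82), FOSB (1.62) and NR4A2 (1.44), all from group means of at most 2.05 TPM with vehicle. FOSB, counted among the 14, had 0.69, 0.39 and 0.70 TPM with vehicle and passed the filter only through its PDBAG1 libraries. Its log2 difference ran from 1.52 to 2.55 over the alternatives, so its size depends on the setting. IER3 was the most abundant and rose from a mean of 797 TPM to one of 1224 TPM. The 2 genes that fell, named after their values were seen, were the matricellular genes CCN1 and CCN2, with log2 differences of -0.53 and -0.98, and MYC was the 1 gene that did not pass. RRAD has been described as a target of p53, and of 10 genes of a p53 target list 9 were tested, of which 4 rose and 5 did not pass. The share that passed was 44.4%, all of it upwards. Over all genes tested 37.6% passed in either direction and 21.7% upwards. The median log2 difference was 0.12 against 0.03. CDKN1A, a cell cycle inhibitor, rose from a mean of 50.8 TPM to one of 113 TPM (log2 difference 1.14). BBC3 rose by 0.70, GDF15 by 0.60 and SESN1 by 0.34, and SESN1 did not pass without vehicle replicate 2, vehicle replicate 3 or PDBAG1 replicate 3. The 5 that did not pass, named after their values were seen, were TIGAR, FAS, ZMAT3, RRM2B and MDM2, the main feedback regulator of p53, which had 15.1 and 15.8 TPM. Whether p53 has a part in the values of RRAD or of these genes was not tested.

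The genes whose profile over the 6 libraries came closest to that of RRAD were found by the root mean square difference of log2(TPM + 1) values after each gene's own mean was removed. The 5 closest were IL1B, an inflammatory cytokine, BHLHE40, a transcriptional repressor, DEPP1, PPFIA4, a member of the liprin scaffold family, and TCAF2. IL1B differed from RRAD by 0.0376 on the log2 scale and the remaining 4 by 0.107 to 0.119. IL1B had 179 ± 4.39 TPM in vehicle libraries and 616 ± 33.0 TPM in treated ones (SD, n = 3 per group), and its log2 difference was 1.77, next to 1.76 for RRAD. GEM was not close to RRAD by this measure, which also counts the size of the step between groups, with a root mean square difference of 0.656. The Pearson correlation of GEM with RRAD over the 6 libraries was 0.94. Besides RRAD itself, 1123 tested genes had a correlation with RRAD of at least that value. The 5 genes closest to GEM were KANK2, an adhesion adaptor, CREB5, a transcription factor, FNDC3B, CYP26B1, which degrades retinoic acid, and B3GNT5, a glycosyltransferase, at 0.0178 to 0.0247. KANK2 had 33.5 ± 2.32 and 46.7 ± 1.66 TPM (SD, n = 3 each). The likenesses to RRAD rest mainly on the step between the groups. With group means removed, Pearson correlations with RRAD were 0.79 for IL1B, 0.20 for DEPP1, -0.30 for TCAF2, -0.31 for BHLHE40 and -0.98 for PPFIA4. Those with GEM were 0.94 to 0.98 for its 5 genes, and 13.1% of the other genes tested reached 0.9. All these likenesses are descriptions over the same libraries on which the family was singled out.

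**Figure D4:**
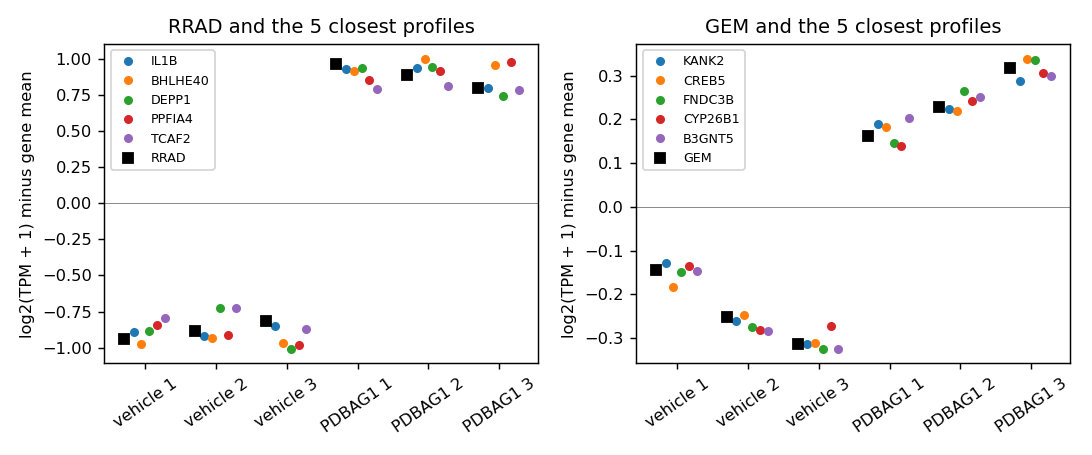
log2(TPM + 1) minus each gene's mean (vertical axes) in the 6 libraries for RRAD (left) and GEM (right), both in black squares, with the 5 genes of closest profile as coloured points. IL1B lies within 0.0376 of RRAD by root mean square, and the 5 genes in the GEM panel lie within 0.0247 of GEM.

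The libraries were looked at for markers of the labelled line, which do not by themselves identify it. The markers VIM, CD44, AXL and MSN summed to 5205 to 5381 TPM with vehicle and 7070 to 7190 TPM with PDBAG1. Most of each sum was VIM, at group means of 4270 and 5877 TPM. VIM, CD44 and MSN rose, whereas AXL fell from 384 to 320 TPM (log2 difference -0.26, limma adjusted p = 0.000342). The 6 markers listed as absent or low in this line summed to 34.3 to 38.9 TPM over all libraries, most of it ERBB2. With vehicle and PDBAG1, EPCAM had means of 5.14 and 5.27 TPM, GATA3 3.59 and 3.23 TPM and ESR1 2.26 and 2.61 TPM. These and ERBB2 passed the expression filter. CDH1, at 0.567 and 0.700 TPM, and PGR, at 0.0267 TPM in both groups, did not. Of 13 markers of immune, endothelial, fat, muscle and fibroblast cells 9 had a row. They summed to 11.6 to 11.8 TPM with vehicle and 16.7 to 18.9 TPM with PDBAG1, of which PECAM1 was 3.94 ± 0.152 and 8.64 ± 0.680 TPM (SD, n = 3 each), and 5 of the 9 stayed below 1 TPM in every library. Their part in the RRAD and GEM values was not tested. Between 12392 and 12611 genes per library reached 1 TPM, and no library stood apart from its group, since the SD of log2 differences between libraries was 0.14 to 0.18 within groups and 0.28 to 0.30 between them.

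In the reference table of RefSeq promoters (GRCh38.p14) REM2 had an entry, and RRAD, GEM and REM1 were not among the entries used. From 250 bases before to 50 after its start, REM2 held none of 8 motifs on either strand. Of the 35116 promoters in the table, the hypoxia core motif ACGTG was in 21.4%, the E-box CACGTG (which contains that core) in 7.26%, the cyclic AMP motif TGACG in 24.6%, the AP-1 motif TGANTCA in 7.71% and the Sp1 motif GGGCGG in 45.0%. The kappaB consensus was in 11.3%, the CArG box in 1.29% and the p53 decamer consensus in 6.63%. The absence of these letters from this window says nothing of the factors.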

How the data were processed

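Libraries of mRNA, 6 in all, were made from total RNA of MDA-MB-231 cells and sequenced. The methods name the BGISEQ-500 platform and the labels an Illumina library protocol. The submitters' processing notes name HISAT2 2.0.4, Bowtie2 2.2.5, RSEM 1.2.12 and the build GRCh38.p12, while the methods name HISAT2, GRCh38.p13 and FPKM. The authors deposited TPM with 2 decimals on a common total, and the annotation release is not given in the sources used here. TPM keeps no depth, so depth and counting error are unknown and precision rests on 3 libraries per group.

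Libraries were grouped by their labels. Genes reaching 1 TPM in at least 3 libraries entered the fit, 1 was added, and log2 values were fitted in R 4.3.3 with limma 3.58.1 (variance trend, Benjamini-Hochberg adjustment over all 12582 genes, threshold 0.05, with a fold limit of 1.5 only where stated). With 3 libraries against 3, an exact two-sided permutation test cannot fall below 0.1. The fit was tested on simulated data. The members and gene lists were chosen with earlier results of these data known. Named in each list were the most abundant gene and up to 4 with the largest differences past the threshold, and for RRAD and GEM the neighbouring genes and the 5 closest profiles. Positions are those of GENCODE v44 (GRCh38), which held 17212 of the 17631 Ensembl identifiers. Alternatives were no expression filter, a pseudocount of 0.1, median-of-ratios scaling, quantile normalization, a block for the replicate number, omission of each library in turn, and other fold limits. REM1, CACNA1C and RIT2, and 4 of the 13 markers of other cells, were not analysed here.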

Additional observations from a re-analysis of the deposited data

How the results depend on the processing

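The log2 difference of RRAD was 1.84 with a pseudocount of 0.1 and otherwise between 1.70 (quantile normalization) and 1.80. It ranged from 1.72 to 1.80 with each library left out. GEM ranged from 0.43 to 0.52 and REM2 from 0.02 to 0.19 over the alternatives, and none of the 3 changed sign. Over all genes, 420 were called at 1.5-fold, 80 at 2-fold and 4736 with no fold limit, and 630 with a pseudocount of 0.1, within 1.5 times the reported count. Under quantile normalization 75.3% of calls were higher against 85.7%. A replicate block on the library numbers gave 427 calls, including all 420, and 48 calls over the lists of companion genes in place of 51. Counts under the block were 7 in place of 8 for binding partners, 8 in place of 9 for Ras-branch GTPases (5 higher in place of 7) and 6 in place of 7 for NF-kB genes. Deviations from the group means correlated at -0.21, 0.01 and -0.08 between libraries of equal number, which are therefore not taken as pairs.

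A 1.5-fold limit left 21 of the companion list genes, namely 0 calcium channel subunits, 0 binding partners, 0 protein kinase A subunits, 2 Ras-branch GTPases, 10 immediate early genes, 3 p53 targets, 3 glucose entry genes and 3 NF-kB genes. The protein kinase A call was also lost, at 0, without the expression filter and under median-of-ratios scaling. With each library left out, calls ranged from 1 to 2 for channel subunits (2 without vehicle replicate 1), from 5 to 10 for binding partners (5 without vehicle replicate 3) and from 0 to 1 for protein kinase A (0 without vehicle replicate 2, vehicle replicate 3 or PDBAG1 replicate 3). REM2 gave no value with the expression filter. Depth is unknown, so no counting error can be given for REM2 or the channel pore subunits.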

Other observations

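The opposite deviations of RRAD and GEM among replicates can be set beside those of the other genes. After the group means were removed, the deviations of RRAD and GEM over the 6 libraries had a Pearson correlation of -0.97, given as a description since each group's deviations sum to 0. Of the other genes tested, 13.1% had a correlation of at least 0.9 with GEM and 10.6% one of at most -0.9 with RRAD. Under median-of-ratios scaling these shares were 2.69% and 5.25%, the correlation of RRAD with GEM was -0.90, the within-group SD of GEM was 0.04 in place of 0.08 on the log2 scale, and that of RRAD was 0.11 in place of 0.07. Under quantile normalization the within-group SDs were 0.05 and 0.11. The scaling factors were 1.02, 0.967 and 0.975 in the vehicle libraries 1 to 3 and 0.988, 1.02 and 1.05 in the PDBAG1 libraries 1 to 3. With PDBAG1 they had the order of GEM, and with vehicle library 1 was the highest in both. The part of library scale in these deviations was not tested.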
